A study of Mus musculus with 15 samples.

Results

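The first cell cycle of embryos without maternal Usp16 was followed here by comparing 2 libraries of cKO zygotes with 2 libraries of cKO 2-cell embryos across all 14392 genes of the expression table. These 4 libraries are among 15 samples of the series, of which 8 are expression libraries. The other 4 expression libraries, 2 of WT zygotes and 2 of WT 2-cell embryos, serve for comparison and also enter the model behind the tests. The term cKO denotes embryos of Usp16 fl/fl;Gdf9-Cre mothers mated with WT males, so the maternal allele was deleted and the paternal allele was intact (Usp16 maternal -/ paternal +). Gdf9-Cre acts in oocytes from the primordial follicle stage onwards. WT denotes embryos of WT mothers and WT males. Zygotes came from the oviducts of superovulated juvenile females and embryos were kept in KSOM medium. The zona pellucida was removed, and 10 embryos were pooled for each Smart-seq2 library, which is primed with oligo-dT and therefore reads mainly polyadenylated RNA. No source used here states whether the 2 libraries of a group came from separate mothers or cultures, so the p-values measure the spread between these libraries only.

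In mouse development the zygote starts almost silent and lives on mRNA and protein that the oocyte stored. Between the zygote and the 2-cell stage this maternal mRNA is deadenylated and cleared, while the embryonic genome is switched on, a step called zygotic genome activation (ZGA). USP16 is a deubiquitinase that takes ubiquitin off lysine 119 of histone H2A. The Polycomb repressive complex PRC1 places that mark (H2AK119ub1), which is associated with silent promoters. The comparison of cKO zygotes with cKO 2-cell embryos asks which transcripts were still gained and lost across this window when the oocyte had lacked Usp16.

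Values were FPKM, a length-scaled level relative to all mapped fragments of a library, with every value under 1 set to 1 by the authors. This value of 1 is called the floor below. The files hold no counts, so sequencing depth is not known and counting error is not given. No external RNA standard is described either, so a fall in FPKM is a fall in share, and a smaller pool of RNA in an embryo cannot be told apart from fewer transcripts of 1 gene. The oocyte and embryo markers fitted the label of the samples, with Dppa3 at 6656 and 6984 FPKM and Zar1 at 327 and 245 in the cKO zygote libraries. Summed FPKM was 547752 to 593317 in 7 of the 8 libraries and 770989 in cKO 2-cell replicate 2. The share of genes at the floor was 29.5% and 31.2% in the cKO zygote libraries and 25.6% and 29.5% in the cKO 2-cell libraries, whereas WT 2-cell libraries had 11.4% and 11.9%. Across genes above the floor in at least 1 of the pair, the log values of the 2 cKO zygote libraries correlated at r = 0.989 and those of the 2 cKO 2-cell libraries at r = 0.908 (10373 and 11590 genes, which are not independent replicates). More than a 3-fold difference separated the 2 cKO zygote libraries for 20 genes and the 2 cKO 2-cell libraries for 1912 genes. The spread at the 2-cell stage therefore sets how firmly any stage difference can be stated.

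Usp16 (mm9, chromosome 16, 87454948 to 87483762, plus strand), the deleted gene, was at 16.8 and 21.99 FPKM in the cKO zygote libraries against 184 and 188 in the WT zygote libraries. In cKO 2-cell embryos it was at 168 and 84.8, and in WT 2-cell embryos at 168 and 183. Both cKO 2-cell libraries thus lay above both cKO zygote libraries, and the higher one reached the WT level. The log2(FPKM + 1) difference between the cKO stages was 2.57 (SE 0.46), adjusted p = 0.00657. With cKO 2-cell replicate 1 left out, it was 2.08 and no longer passed (adjusted p = 0.0841), and with the 4 cKO libraries fitted alone the adjusted p was 0.0667. FPKM per gene does not tell whether the 2-cell reads come from the intact paternal allele.

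In cKO embryos, 2984 of 14392 genes rose (20.7%) and 2623 fell (18.2%) between the zygote and the 2-cell stage at an adjusted p under 0.05. This call, used for the words rose and fell throughout, came from a limma model of log2(FPKM + 1) that held the 4 WT libraries as well, gave each group its own weight and used Benjamini-Hochberg adjustment over all genes. The other 8785 genes did not pass. The median log2 difference was 2.37 for genes that rose, -2.2 for genes that fell and 0 over all genes. By the fold of group means alone, 3281 genes were more than 3-fold higher (22.8%) and 2763 more than 3-fold lower (19.2%) in cKO 2-cell embryos. When every one of the 4 ratios of a 2-cell to a zygote library had to pass 3, 2305 genes were higher and 2114 lower. Large increases were more frequent than large decreases, since 1180 genes that rose and 629 genes that fell differed by more than 10-fold, and 90 against 2 by more than 100-fold. Rn45s is 1 of these 2, and its listed values may be a failed estimate, as described below. The count of genes that fell was 1316 without cKO 2-cell replicate 1 and 1091 without replicate 2, and 1724 with the 4 cKO libraries alone. In none of these settings did a gene called in 1 direction pass in the other. Leaving out any 2-cell library, WT or cKO, lowered the number of calls over all genes in both directions. List counts given below for such fits are to be read with that loss, which is not repeated beside them. With 2 libraries a side, the smallest p of an exact permutation test is 0.333, so the calls rest on the spread that limma shares between genes.

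**Figure D1:**
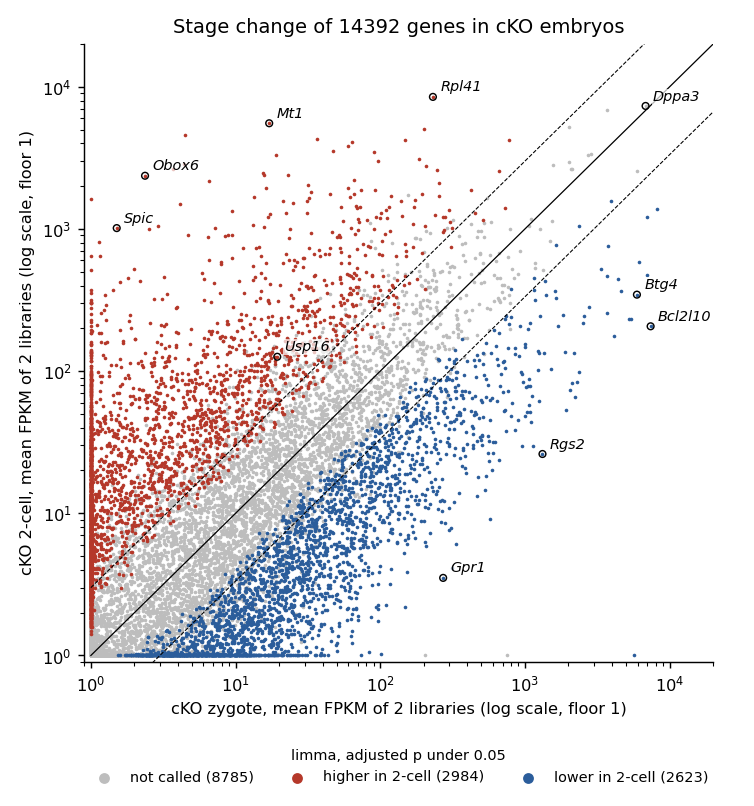
Mean FPKM of 2 cKO zygote libraries (x axis) against mean FPKM of 2 cKO 2-cell libraries (y axis) for 14392 genes, both on log scales with a floor of 1. Red points are the 2984 genes that rose, blue points the 2623 that fell and grey points the 8785 not called; the solid line marks equal means and the dashed lines 3-fold differences, and named genes are circled.

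Of the genes that rose, 1241 (41.6%) were at the floor in both cKO zygote libraries, so that their folds are lower bounds, and 1743 were already above it in a zygote library. Of the genes that fell, 453 (17.3%) reached the floor in both cKO 2-cell libraries and 2170 kept a value above it in at least 1. Among the 880 genes above 100 FPKM in both cKO 2-cell libraries, 504 (57.3%) had risen. A set of 29 genes went from the floor in both zygote libraries to over 100 FPKM in both 2-cell libraries, and all of them passed the test. It held Gabpa, an ETS-family transcription factor (138 and 132 FPKM at the 2-cell stage), Ncbp1, the large subunit of the nuclear cap-binding complex (137 and 112), and Kpna1, an importin alpha (114 and 121). It also held Pramel7 (311 and 302), Pramel6 (192 and 222) and Trim43a (226 and 373), which belong to gene families active in early embryos and have close copies that short reads may not separate. The set was chosen on these levels, so a difference of more than 100-fold was fixed by that choice. Passing the test on the same values adds no further support.

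The largest increases were among genes that were nearly absent from cKO zygotes. The ribosomal protein gene Rps27 went from the floor to 889 and 2359 FPKM (at least 1624-fold higher, log2 difference 9.50, SE 0.46, adjusted p = 0.000321). Obox6 (mm9, chromosome 7, 16418595 to 16425027, minus strand), a homeobox gene of the Obox family, went from 3.12 and 1.62 to 1491 and 3242 FPKM (999.6-fold, log2 difference 9.39, SE 0.69, adjusted p = 0.000575). Crxos1, another homeobox gene, went from 4.28 and 3.08 to 1455 and 3810 (715-fold, log2 difference 8.99, SE 0.51, adjusted p = 0.000397). In these 3 genes both zygote libraries were under 5 FPKM, and cKO 2-cell replicate 2 was over 2 times replicate 1, a gap that is small beside the stage difference. Spic (mm9, chromosome 10, 88137517 to 88147760, minus strand), which encodes an ETS-family transcription factor, was at 1.55 and 1.47 FPKM in zygotes and at 925 and 1102 in 2-cell embryos (672-fold, log2 difference 8.65, SE 0.36, adjusted p = 0.000279), with the 2-cell libraries close to each other. Guca1a, which encodes a guanylate cyclase activating protein known from photoreceptors, went from the floor to 409 and 890.1 (at least 649.6-fold, adjusted p = 0.000279). Rab20, a small GTPase of vesicle transport, went from 1.32 and 1 to 455 and 843 (560.1-fold, adjusted p = 0.000291), and the autophagy receptor gene Calcoco2 from the floor to 245 and 779 (at least 512-fold, adjusted p = 0.000417). Tomm5, a subunit of the mitochondrial import pore, was at 4.92 and 3.82 in zygotes and 1266 and 4465 in 2-cell embryos (656-fold, adjusted p = 0.000785). The unnamed loci Gm11517, B020004C17Rik and 2310040G24Rik were 1011-fold, 720.4-fold and 396-fold higher. Gm11517 is annotated as a pseudogene of 405 bases with 1 exon. Its value may depend on how reads with several matches were assigned. Rnu11, the U11 RNA of the minor spliceosome, went from the floor to 256 and 492 (adjusted p = 0.0279), and it is not expected to carry the poly(A) tail on which the libraries are primed. Leaving out 1 library ended the call of Rnu11 (without either cKO zygote replicate or either WT 2-cell replicate or either cKO 2-cell replicate, highest adjusted p = 0.227). The call also ended for Rnu11 (under median-ratio scaling, adjusted p = 0.0551).

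The genes with the highest levels among strong risers were ribosomal protein genes and a metallothionein. Mt1 (mm9, chromosome 8, 96702989 to 96704225, plus strand), whose product binds zinc and other metals, went from 21.8 and 12.3 to 4245 and 6834 FPKM (324-fold, log2 difference 8.27, SE 1.02, adjusted p = 0.0019). Rpl41 reached the highest 2-cell level among them, from 182 and 281 to 6144 and 10835 FPKM (36.7-fold, log2 difference 5.17, SE 0.73, adjusted p = 0.00294). Both of these genes were higher in cKO 2-cell replicate 2 than in replicate 1. The ribosomal protein genes Rps29, Rps26, Rplp1 and Rpl39 were also among the most abundant strong risers, at 25.2-fold, 28.5-fold, 63.9-fold and 63.7-fold higher. With 1 library left out, the call was lost for Rpl41 (without cKO 2-cell replicate 2, adjusted p = 0.0527) and Rps29 (without cKO 2-cell replicate 2, adjusted p = 0.0784).

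**Figure D2:**
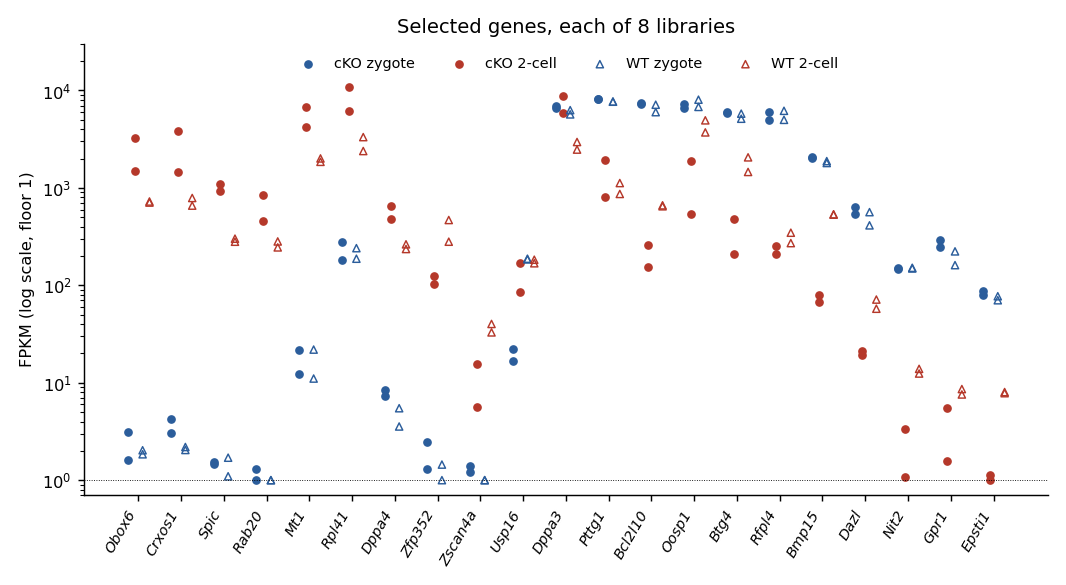
FPKM on a log scale (y axis) of 21 selected genes (x axis) in each of 8 libraries; filled circles are cKO and open triangles WT libraries, blue for zygotes and red for 2-cell embryos, and the dotted line is the floor of 1. From Obox6 to Zscan4a both red circles lie above both blue circles; from Pttg1 to Epsti1 they lie below, and Dppa3 overlaps between stages.

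Early zygotic genes singled out in the study include members of the Zscan4 family. The study measured Zscan4c and Zscan4f by RT-qPCR, and the list used here adds Zscan4a, Zscan4b and Zscan4d. Of 11 members in the table, 3 rose and 0 fell in cKO embryos (27.3% and 0%, against 20.7% and 18.2% of all genes), whereas 10 rose in WT embryos at a background of 36.6%, and the median log2 difference was 0.84 against 0 over all genes. By the 3-fold rule, 6 of the 11 were higher in cKO 2-cell embryos, against 22.8% of all genes. The study chose most of this list on the same kind of embryos, so its behaviour is no independent evidence. Zfp352, a zinc finger gene of the 2-cell stage, rose from 2.44 and 1.31 to 125 and 103 FPKM (log2 difference 5.34, SE 0.67, adjusted p = 0.00197), and was at 280.3 and 468 in WT 2-cell embryos. Zscan4a rose from 1.39 and 1.20 to 5.58 and 15.5 (log2 difference 2.18, SE 0.41, adjusted p = 0.00774), with 32.9 and 40.1 in WT, and Hspa2, a heat shock protein gene, from 1.66 and 1.62 to 5.41 and 5.47 (log2 difference 1.29, SE 0.28, adjusted p = 0.0127), with 30.3 and 36.9 in WT. For all 3 genes both cKO 2-cell libraries lay between the zygote and the WT 2-cell libraries. Zscan4d was at 4.04 and 3.20 in zygotes and 6.35 and 20.9 in 2-cell embryos (adjusted p = 0.0631), Ankrd22 at 2.48 and 1.89 against 4.43 and 30.2 (adjusted p = 0.0917) and Klf10, a Krüppel-like factor gene, at 2.08 and 2.92 against 4.11 and 1 (adjusted p = 0.956). In Zscan4d and Ankrd22 the uncalled difference came mainly from cKO 2-cell replicate 2. The Zscan4 genes are near-identical copies, and single values within the family are uncertain. A call was gained by Zscan4d (without cKO 2-cell replicate 1, adjusted p = 0.0498). Other settings ended the call of Zscan4a (with the 4 cKO libraries alone, adjusted p = 0.0656). Zscan4d (with the filter at a group mean of 3, adjusted p = 0.0395) and Ankrd22 (with the filter at a group mean of 3, adjusted p = 0.0416) passed in another setting.

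Of a wider list of 28 ZGA regulators and 2-cell markers, 15 rose, 4 fell and 9 were not called (53.6% and 14.3%, against 20.7% and 18.2% of all genes), with a median log2 difference of 2.02. In WT embryos 18 rose and 5 fell. Obox3 rose from 6.88 and 5.96 to 681 and 1081 FPKM (log2 difference 6.86, SE 0.35, adjusted p = 0.000343). Dppa4 and Dppa2, which encode partner proteins that bind DNA and promote 2-cell transcription, rose from 8.42 and 7.38 to 657 and 483 (adjusted p = 0.00062) and from 79.5 and 59.6 to 817 and 618 (adjusted p = 0.00353). Both cKO 2-cell libraries of Dppa2 and Dppa4 were above the WT 2-cell libraries, which were at 221 and 203 for Dppa2 and 236 and 264 for Dppa4. Eif1a, a translation factor gene of the 2-cell stage, went from the floor to 118 and 139 (adjusted p = 0.000291). The Tdpoz genes, a family of close copies with a BTB domain, rose as well, with Tdpoz1 from the floor to 35.1 and 86.4, Tdpoz4 to 29.1 and 40.8 and Tdpoz2, annotated as a pseudogene, to 26.3 and 26.8. The orphan nuclear receptor gene Nr5a2 rose from 3.87 and 4.06 to 45.6 and 23.9 (adjusted p = 0.00226), Klf5 from the floor to 26.6 and 5.54 (adjusted p = 0.00806), and Klf4 from 2.99 and 3.18 to 22.2 and 11.3 (adjusted p = 0.0131). Dux, whose own transcript appears briefly early in the 2-cell stage, was at 1.83 and 1.03 in zygotes and at the floor in both 2-cell libraries (adjusted p = 0.826). Members that fell were the maternal Obox genes and Yap1, with Obox5 from 4099 and 4107 to 121 and 234 (adjusted p = 0.00062), Obox1 from 2249 and 2333 to 56.3 and 110.2, Obox2 from 1911 and 1962 to 43.5 and 63.6, and Yap1, a transcriptional coactivator of the Hippo pathway, from 79.7 and 81.8 to 30.2 and 28.4 (adjusted p = 0.00545). The call did not hold in every leave-one-out fit for Dppa2 (without cKO 2-cell replicate 1, adjusted p = 0.0538) and Klf4 (without cKO 2-cell replicate 1, adjusted p = 0.122). A call was also lost for Klf5 (with the 4 cKO libraries alone, adjusted p = 0.0785).

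The cytoplasmic ribosomal protein genes had the largest median difference of any list. Of 84 genes, 77 rose and 0 fell, at a background of 20.7% of all genes that rose. The median log2 difference was 4.03, against 0 over all genes and 2.81 for the same list in WT. Their summed FPKM was 1.57% and 1.51% of the total in the cKO zygote libraries and 13.5% and 18.1% in the cKO 2-cell libraries, and WT embryos went from 1.69% and 1.48% to 7.34% and 6.32%. The share was thus higher in both cKO 2-cell libraries than in both WT 2-cell libraries. By the interaction test described below, 1 of the 84 genes was called more positive in cKO and 0 more negative. Over all genes the shares were 0.605% and 4.55%. Rps19 rose from 5.85 and 7.33 to 1266 and 3060 FPKM (log2 difference 8.03, SE 0.46, adjusted p = 0.000397) and Rpsa, the laminin receptor and small subunit protein, from 2.32 and 2.04 to 314 and 553 (adjusted p = 0.00062). Among the 7 genes not called, Rpl34 was at 8.56 and 26.1 in zygotes and 177 and 86.9 in 2-cell embryos (adjusted p = 0.156). Rps27l, a paralogue of Rps27 that p53 can induce, was abundant at both stages, at 2555 and 2915 against 1552 and 5119 (adjusted p = 1). Ribosomal protein genes have many processed pseudogenes, so single values depend on how reads with several matches were assigned. The count of ribosomal protein genes called higher was 47 without cKO 2-cell replicate 2. A call was gained by Rpl34 (without either cKO zygote replicate, lowest adjusted p = 0.00321). Rpl34 (with equal weights, adjusted p = 0.00457) passed in another setting.

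Because these genes rose together, their promoters were read from RefSeq (build GRCm38.p6, not the mm9 build of the table). The ETS-type letters CCGGAAG, on either strand, were in 39.6% of 53 ribosomal protein promoters and in 16.9% of 8237 promoters of all genes with 1 listed start, over the 300 bases from 250 before to 50 after the start. In the 100 bases before the start alone, the shares were 18.9% and 8.89%. Printed here, to show the motif in its place, are the 6 risers among them with the highest cKO 2-cell mean that hold the motif in those 100 bases, 5′ to 3′ along the gene, with the motif in capitals. The windows are chr10:128549169-128549268 (minus strand) for Rpl41, chr11:114668480-114668579 (plus strand) for Rpl38, chr9:44407614-44407713 (plus strand) for Rps25, chr17:33955666-33955765 (minus strand) for Rps18, chr12:28635954-28636053 (minus strand) for Rps7 and chr17:27635245-27635344 (minus strand) for Rps10.
Rpl41: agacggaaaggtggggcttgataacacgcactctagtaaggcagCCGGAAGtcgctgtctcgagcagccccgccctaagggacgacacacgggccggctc
Rpl38: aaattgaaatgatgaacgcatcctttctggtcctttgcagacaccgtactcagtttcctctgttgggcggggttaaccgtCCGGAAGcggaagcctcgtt
Rps25: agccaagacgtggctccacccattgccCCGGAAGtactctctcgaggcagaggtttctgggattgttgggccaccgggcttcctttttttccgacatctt
Rps18: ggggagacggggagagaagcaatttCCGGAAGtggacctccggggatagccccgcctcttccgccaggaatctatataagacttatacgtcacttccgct
Rps7: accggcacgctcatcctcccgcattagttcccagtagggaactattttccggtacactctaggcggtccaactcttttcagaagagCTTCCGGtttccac
Rps10: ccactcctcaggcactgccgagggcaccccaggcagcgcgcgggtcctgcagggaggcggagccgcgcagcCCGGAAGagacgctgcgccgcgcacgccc

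Rps7 carries the motif on the opposite strand, as CTTCCGG. Rpl41 is the gene with the highest cKO 2-cell level above, Rpl38 went from 64.0 and 67.4 to 1776 and 2637 FPKM (adjusted p = 0.00197) and Rps25 from 69.0 and 54.6 to 1136 and 2221 (adjusted p = 0.00129). Rps18 went from 34.0 and 28.6 to 824 and 2329 (adjusted p = 0.0019), Rps7 from 80.8 and 61.1 to 667 and 1587 (adjusted p = 0.00263) and Rps10 from 78.7 and 61.2 to 819 and 1159 (adjusted p = 0.00531). Across all genes that passed the test with all 4 ratios past 3, the motif was in 22.7% of 1281 promoters of genes that rose and 13.1% of 1053 promoters of genes that fell, in the 300-base window. The CCAAT box was in 39.7% and 38.4%, the TATA box letters TATAAA in 8.43% and 8.83%, and the OTX and OBOX type letters GGATTA in 7.88% and 5.60%, with 40.2%, 8.72% and 6.08% over all promoters. The SP and KLF type letters GGGCGG were in 62.3% and 55.4%, against 60% over all, the E-box CACGTG in 12.6% and 7.79%, against 9.89%, and the CRE TGACGTCA in 4.06% and 2.94%, against 3.12%. The NR5A type letters TCAAGGTCA were in 0.468% and 0.095%, against 0.279%. In ribosomal protein promoters the shares were 30.2% for CCAAT, 11.3% for TATAAA, 7.55% for GGATTA, 60.4% for GGGCGG, 5.66% for CACGTG, 9.43% for TGACGTCA and 0% for TCAAGGTCA. Every motif was searched on both strands of the 300-base window. These shares describe letters in a window and were not tested. When single libraries were omitted, the call ended for Rps10 (without either cKO 2-cell replicate, highest adjusted p = 0.0795).

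Genes that build ribosomes rose with the ribosomal proteins. Of 66 genes of ribosome biogenesis and the nucleolus, 41 rose and 0 fell (62.1% and 0%, against 20.7% and 18.2% of all genes), and the median log2 difference was 1.91 against 1.68 in WT. By the interaction test, 1 of the 66 was called more positive in cKO and 0 more negative, against 0.605% and 4.55% of all genes. Nop2, a methyltransferase of ribosomal RNA, went from the floor to 77.5 and 72.0 FPKM (log2 difference 5.24, SE 0.28, adjusted p = 0.000343), and Bop1, a large subunit maturation factor, from the floor to 34.2 and 28.5 (adjusted p = 0.000634). Polr1c, a subunit shared by RNA polymerases I and III, went from 5.43 and 6.74 to 234 and 401 (adjusted p = 0.000792), and Ubtf, the factor that holds ribosomal DNA open, from the floor to 30.5 and 16.3 (adjusted p = 0.000914). In these 4 genes both 2-cell libraries were over 10 times both zygote libraries. The count of ribosome biogenesis genes called higher was 20 without cKO 2-cell replicate 1.

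The list of translation initiation and elongation factors held 65 genes, of which 26 rose and 6 fell (40% and 9.23%, against 20.7% and 18.2% of all genes), with a median log2 difference of 1.23. Subunits of the initiation factor eIF3 were among the risers, with Eif3l from 5.15 and 4.53 to 75.3 and 68.5 FPKM (adjusted p = 0.00122), Eif3m from 57.0 and 48.3 to 439.5 and 484 (adjusted p = 0.00304) and Eif3c from 17.3 and 16.8 to 179 and 88.5 (adjusted p = 0.00155). The members that fell included variants of the cap-binding protein eIF4E. Eif4e1b, the oocyte form, fell from 239 and 167 to 8.40 and 16.6 (adjusted p = 0.00538) and Eif4e3 from 202 and 223 to 12.4 and 9.43 (adjusted p = 0.000575), whereas Eif4e itself rose from 319 and 287 to 1174 and 1069 (adjusted p = 0.00896). Eef2k, the kinase that inhibits elongation factor 2, fell from 64.9 and 58.1 to 2.80 and 3.12 (adjusted p = 0.000614). Of 36 aminoacyl tRNA synthetases, which charge tRNAs, 14 rose and 3 fell (38.9% and 8.33%), with Mars2 from the floor to 20.2 and 25.2 (adjusted p = 0.00062) and Farsb from 197 and 186 to 60.1 and 42.5 (adjusted p = 0.00372). The number of translation factors called higher was 17 without either WT 2-cell replicate or cKO 2-cell replicate 2 and 10 without cKO 2-cell replicate 1. Calls lost on omission of 1 library were those of Eif4e1b (without either cKO 2-cell replicate, highest adjusted p = 0.0828) and Eif4e (without either cKO 2-cell replicate, highest adjusted p = 0.0703).

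Among 54 genes of the RNA polymerases and general transcription factors, 23 rose and 6 fell (42.6% and 11.1%, against 20.7% and 18.2% of all genes), with a median log2 difference of 1.07. Polr2h, a subunit common to the 3 nuclear polymerases, rose from 22.4 and 22.1 to 532 and 794 FPKM (adjusted p = 0.000922), Polr3g from 2.91 and 2.71 to 58.7 and 59.4 (adjusted p = 0.000758), and Cdk9, the kinase that releases paused polymerase II, from 3.40 and 3.58 to 35.8 and 27.8 (adjusted p = 0.00122). Polr2a, the largest polymerase II subunit, was not called, at 1.38 and 1.29 in zygotes and 17.1 and 2.47 in 2-cell embryos (adjusted p = 0.0552), and the 2 cKO 2-cell libraries differed widely. The oocyte paralogue of TBP, Tbpl2, fell from 17.4 and 16.2 to the floor in both libraries (adjusted p = 0.000867), and Gtf2b, which encodes TFIIB, fell from 1195 and 855 to 55.2 and 99.6 (adjusted p = 0.00571). Of 74 splicing genes 22 rose and 5 fell (29.7% and 6.76%), with Snrpc of the U1 particle from 15.3 and 12.6 to 888 and 588 (adjusted p = 0.000586) and Prpf4 of the U4/U6 particle from the floor to 26.5 and 24.1 (adjusted p = 0.000575). The count of polymerase and general factor genes called higher was 12 without cKO 2-cell replicate 1 and 11 without cKO 2-cell replicate 2, and that called lower was 3 without either WT 2-cell replicate, 1 without cKO 2-cell replicate 1 and 2 without cKO 2-cell replicate 2. The count of splicing genes called higher was 14 without cKO 2-cell replicate 2, and that called lower was 3 without cKO zygote replicate 2 or cKO 2-cell replicate 1, 1 without either WT 2-cell replicate and 0 without cKO 2-cell replicate 2. Leaving out 1 library ended the call of Gtf2b (without either cKO 2-cell replicate, highest adjusted p = 0.0838). A call was gained by Polr2a (without cKO 2-cell replicate 2, adjusted p = 0.0155). Polr2a (with a pseudocount of 0.1, adjusted p = 0.0498, and with the filter at a group mean of 3, adjusted p = 0.0279) passed in another setting.

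Lists of protein turnover, energy metabolism and folding are read against the background of 20.7% of all genes that rose and 18.2% that fell. Of 47 proteasome genes 19 rose and 5 fell (40.4% and 10.6%, median 0.61 on the log2 scale), with the catalytic subunit gene Psmb5 from 5.47 and 6.21 to 456 and 532 FPKM (adjusted p = 0.00155) and Psma7 from 894 and 711 to 227 and 251 (adjusted p = 0.0238). Among 89 genes of the respiratory chain and ATP synthase 25 rose and 9 fell (28.1% and 10.1%, median 0.91), with the complex IV gene Cox7c from 13.8 and 13.4 to 265 and 650.3 (adjusted p = 0.00148) and the complex I gene Ndufa10 from 208 and 179.8 to 30.2 and 17.1 (adjusted p = 0.00239). Cox7c was over 2 times higher in cKO 2-cell replicate 2 than in replicate 1. Of 34 chaperone genes 9 rose and 5 fell (26.5% and 14.7%), shares near that background. Cct6a, a subunit of the CCT chaperonin, rose from 1.45 and 1.04 to 205 and 111 (adjusted p = 0.000524), and Hsp90aa1 fell from 1308 and 1457 to 491 and 370.5 (adjusted p = 0.0103). In the list of glycolysis and pyruvate use, 5 of 26 genes rose and 3 fell (19.2% and 11.5%), and the share that rose was near the background too. The lactate dehydrogenase genes moved in opposite directions, with Ldhb, the oocyte form, falling from 2506 and 2577 to 274 and 218 (adjusted p = 0.00572) and Ldha rising from 1.75 and 1.97 to 22.5 and 56.1 (adjusted p = 0.00287). The count of proteasome genes called higher was 12 without cKO 2-cell replicate 1 and 11 without cKO 2-cell replicate 2, and that called lower was 2 without either WT 2-cell replicate, 1 without cKO 2-cell replicate 1 and 0 without cKO 2-cell replicate 2. The count of respiratory chain genes called higher was 11 without either WT 2-cell replicate, 10 without cKO 2-cell replicate 1 and 7 without cKO 2-cell replicate 2, and that called lower was 4 without cKO 2-cell replicate 1. The count of chaperone genes called higher was 4 without cKO 2-cell replicate 1, and that called lower was 2 without either WT 2-cell replicate or cKO 2-cell replicate 1 and 1 without cKO 2-cell replicate 2. The count of glycolysis genes called higher was 3 without cKO 2-cell replicate 1, and that called lower was 1 without cKO 2-cell replicate 1. With 1 library left out, the call was lost for Psma7 (without either WT 2-cell replicate or either cKO 2-cell replicate, highest adjusted p = 0.153), Hsp90aa1 (without cKO 2-cell replicate 2, adjusted p = 0.0776) and Ldhb (without either cKO 2-cell replicate, highest adjusted p = 0.0741). The call also ended for Psma7 (with the 4 cKO libraries alone, adjusted p = 0.0938) and Hsp90aa1 (with the 4 cKO libraries alone, adjusted p = 0.0612).

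Of 47 replication genes 10 rose and 6 fell (21.3% and 12.8%, against 20.7% and 18.2% of all genes), with a median log2 difference of 0.025. The share that rose was near the background. Ccne1, the cyclin of S-phase entry, rose from 4.97 and 2.85 to 378 and 189 FPKM (adjusted p = 0.00173), Rpa2 from 18.5 and 16.0 to 214 and 225 (adjusted p = 0.00214), and Orc5 of the origin recognition complex fell from 525 and 465 to 52.7 and 73.0 (adjusted p = 0.00125). Of 28 p53 targets and arrest genes 10 rose and 2 fell (35.7% and 7.14%). Cdkn1a, the p21 inhibitor of cyclin-dependent kinases, rose from 2.59 and 1.42 to 26.9 and 18.1 (adjusted p = 0.0111), and Gadd45b from 2.53 and 2.37 to 65.2 and 55.4 (adjusted p = 0.00144). WT 2-cell embryos were at 34.6 and 44.1 for Cdkn1a and 146 and 146 for Gadd45b, above both cKO libraries in each case. The count of arrest genes called higher was 6 without cKO 2-cell replicate 1, and that called lower was 1 without either cKO zygote replicate and 0 without either cKO 2-cell replicate. The call did not hold in every leave-one-out fit for Cdkn1a (without either cKO 2-cell replicate, highest adjusted p = 0.119). Other settings ended the call of Cdkn1a (with the 4 cKO libraries alone, adjusted p = 0.0894).

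**Figure D3:**
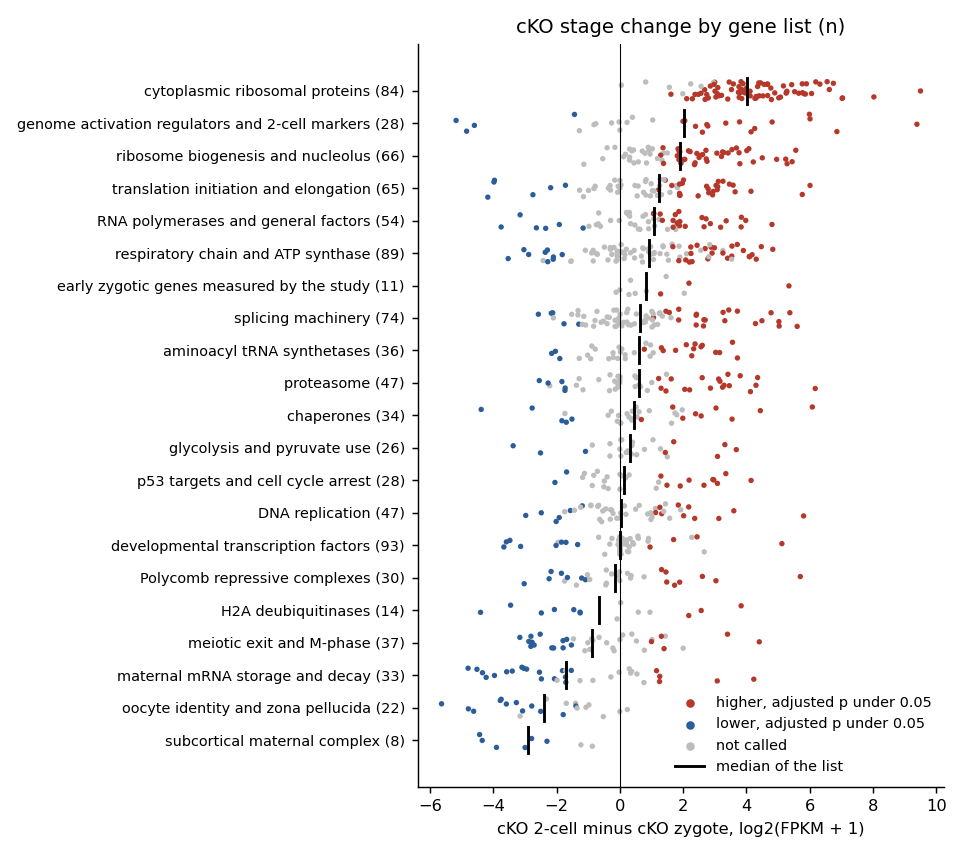
Log2(FPKM + 1) difference between cKO 2-cell embryos and cKO zygotes (x axis) for each gene of 21 lists (y axis, with the number of genes measured), ordered by the median of the list, shown as a black bar. Red points rose, blue points fell and grey points were not called; the median runs from 4.03 for ribosomal proteins to -2.89 for the subcortical maternal complex.

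The falling side was led by transcripts that are abundant in oocytes. Bcl2l10 (mm9, chromosome 9, 75195565 to 75199439, plus strand), an oocyte member of the BCL2 family, fell from 7333 and 7448 to 153 and 261 FPKM (35.8-fold lower, log2 difference -5.20, SE 0.39, adjusted p = 0.000586). Pttg1, which encodes securin, was the most abundant of them, at 8132 and 8270 in zygotes and 807 and 1947 in 2-cell embryos (5.96-fold, log2 difference -2.71, SE 0.44, adjusted p = 0.00485). Oosp1, an oocyte-secreted protein, went from 6607 and 7334 to 544 and 1876 (5.76-fold, log2 difference -2.78, SE 0.57, adjusted p = 0.011). The 2 zygote libraries were close to each other in these genes, and the 2 cKO 2-cell libraries differed by more than 1.5 times in each. Rfpl4, an oocyte RING finger protein, fell from 4952 and 5946 to 256 and 211 (23.3-fold, adjusted p = 0.00113), and Mphosph6, an exosome cofactor, from 6311 and 7663 to 393 and 556 (14.7-fold, adjusted p = 0.00195). The less characterised Gm97 and E330034G19Rik fell 10.6-fold and 22.2-fold. When single libraries were omitted, the call ended for Oosp1 (without either WT 2-cell replicate or cKO 2-cell replicate 1, highest adjusted p = 0.0786) and Gm97 (without cKO 2-cell replicate 1, adjusted p = 0.0709). A call was also lost for Pttg1 (with the 4 cKO libraries alone, adjusted p = 0.103), Oosp1 (under median-ratio scaling, adjusted p = 0.069, and with the 4 cKO libraries alone, adjusted p = 0.109) and Gm97 (with the 4 cKO libraries alone, adjusted p = 0.068).

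Other large folds among falling genes were at lower zygote levels. Epsti1 (mm9, chromosome 14, 78304046 to 78397975, plus strand) fell from 80.3 and 87.9 to 1.12 and 1 FPKM (79.2-fold, log2 difference -5.37, SE 0.29, adjusted p = 0.000343). Gpr1, a receptor for chemerin, fell from 294 and 249.7 to 1.56 and 5.47 (77.5-fold, log2 difference -6.06, SE 0.54, adjusted p = 0.000806), and Nit2, an omega-amidase, from 147 and 151 to 3.33 and 1.07 (67.6-fold, log2 difference -5.64, SE 0.33, adjusted p = 0.000397). In each of these genes at least 1 cKO 2-cell library was under 2 FPKM. Dnajb4, an HSP40 chaperone, fell from 566 and 573 to 7.10 and 11.3 (62.0-fold), Rgs2, a regulator of G protein signalling that is prominent in eggs, from 1415 and 1229 to 20.6 and 31.6 (50.6-fold), and Gja4, the oocyte gap junction protein connexin 37, from 76.2 and 51.9 to 1.46 and 1 (52.1-fold). C86695, Gm813, Apoo-ps, Agr3, Ninj2 and Dclk2 completed the 12 largest decreases among the genes that the naming rule admits, with folds from 48.8 for Dclk2 to 100.1 for C86695. Rn45s, the precursor of ribosomal RNA, was left out by that rule although its decrease was larger, from 5930 and 5476 FPKM to a listed value of 1 in both libraries (adjusted p = 0.000123). It is also listed at 1 in all 4 WT libraries, and a listed 1 may be a failed estimate for such a gene, so no fold is given. Rn45s is named here after its values were seen. Apoo-ps was at the floor in both 2-cell libraries too, so its at least 74.2-fold decrease is a lower bound. Calls lost on omission of 1 library were those of Gja4 (without either cKO 2-cell replicate, highest adjusted p = 0.0765), Apoo-ps (without either WT 2-cell replicate or either cKO 2-cell replicate, highest adjusted p = 0.174) and Ninj2 (without cKO 2-cell replicate 2, adjusted p = 0.0662). The call also ended for Apoo-ps (with a pseudocount of 5, adjusted p = 0.0526).

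Of 22 oocyte identity and zona pellucida genes, 12 fell and 0 rose, at a background of 18.2% of all genes that fell, and the median log2 difference was -2.41 against -1.01 in WT. Their summed FPKM went from 4.35% and 4.4% of the total in cKO zygotes to 0.675% and 1.11% in cKO 2-cell embryos, and from 3.98% and 4.62% to 3.11% and 2.62% in WT. By the interaction test, 2 of the 22 were called more negative in cKO and 0 more positive, against 4.55% and 0.605% of all genes. H1foo, the oocyte linker histone, fell from 2574 and 2162 to 71.3 and 126 FPKM (log2 difference -4.62, SE 0.54, adjusted p = 0.00169), and Bmp15, a growth factor secreted by the oocyte, from 2025 and 2074 to 79.7 and 67.5 (log2 difference -4.79, SE 0.28, adjusted p = 0.000397), with 531 and 536 left in WT 2-cell embryos. Npm2, the nucleoplasmin of the oocyte, fell from 722 and 613 to 77.7 and 78.4 (adjusted p = 0.00199) and Nobox, an oocyte homeobox regulator, from 119 and 79.9 to 5.81 and 6.88 (adjusted p = 0.0063). Gdf9, whose promoter drives the Cre, was at 764 and 565 in zygotes and 266 and 367 in 2-cell embryos (adjusted p = 0.198), and Zp3 at 122 and 102 against 116 and 149 (adjusted p = 0.871). The 2 stages did not overlap for Gdf9 but did for Zp3. The count of oocyte genes called lower was 6 without cKO 2-cell replicate 1. Leaving out 1 library ended the call of Nobox (without either cKO 2-cell replicate, highest adjusted p = 0.0814). Other settings ended the call of Nobox (with the 4 cKO libraries alone, adjusted p = 0.056). Gdf9 (with equal weights, adjusted p = 0.0326) passed in another setting.

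The subcortical maternal complex, a protein lattice under the egg membrane that embryos need to pass the 2-cell stage, had 6 of 8 genes falling and 0 rising (75% and 0%, against 18.2% and 20.7% of all genes), with a median log2 difference of -2.89, against -1.67 in WT. By the interaction test, 1 of the 8 was called more negative in cKO and 0 more positive. Ooep fell from 1282 and 890.1 to 33.7 and 69.7 FPKM (log2 difference -4.43, SE 0.60, adjusted p = 0.00261), Nlrp5, also called MATER, from 186 and 205 to 18.5 and 30.1 (log2 difference -2.99, SE 0.35, adjusted p = 0.00164), and Zbed3 from 3756 and 3592 to 335 and 179 (log2 difference -3.90, SE 0.38, adjusted p = 0.000991). Both 2-cell libraries were under 0.2 times both zygote libraries in these 3 genes. Tle6 was not called, at 92.3 and 70.8 against 32.6 and 35.2 (adjusted p = 0.308). Tle6 (with equal weights, adjusted p = 0.0272) passed in another setting.

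Of 33 genes of maternal mRNA storage and decay, 17 fell and 5 rose (51.5% and 15.2%, against 18.2% and 20.7% of all genes), with a median log2 difference of -1.71 against -0.60 in WT. By the interaction test, 1 of the 33 was called more negative in cKO and 0 more positive, against 4.55% and 0.605% of all genes. The genes that fell carry out both storage and clearance. Btg4, which brings the CCR4-NOT deadenylase to maternal mRNA, fell from 5843 and 6041 to 208 and 482 FPKM (log2 difference -4.22, SE 0.45, adjusted p = 0.00131), and the deadenylase subunit gene Cnot6l from 176 and 222 to 8.56 and 9.08 (log2 difference -4.34, SE 0.50, adjusted p = 0.00157). Dazl, a binder of germ cell mRNA, fell from 546 and 632 to 19.2 and 21.1 (log2 difference -4.80, SE 0.45, adjusted p = 0.000925), and Zar1, a storage factor, from 327 and 245 to 24.4 and 27.5 (adjusted p = 0.00485). Members that rose included Tob1, from 2.39 and 1.89 to 88.8 and 37.6 (adjusted p = 0.00164), and Ythdf2, a reader of N6-methyladenosine in mRNA decay, from 24.5 and 24.2 to 259.5 and 174 (adjusted p = 0.000766). Btg4 was at 2058 and 1457 and Cnot6l at 44.8 and 51.2 in WT 2-cell embryos, above the cKO 2-cell libraries for both genes. The count of storage and decay genes called higher was 3 without cKO zygote replicate 2 or either WT 2-cell replicate or cKO 2-cell replicate 1, and that called lower was 9 without cKO 2-cell replicate 2. With 1 library left out, the call was lost for Zar1 (without either cKO 2-cell replicate, highest adjusted p = 0.0653).

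Among 37 genes of meiotic exit and M-phase, 13 fell and 5 rose (35.1% and 13.5%, against 18.2% and 20.7% of all genes), with a median log2 difference of -0.89. Mos, the kinase of metaphase II arrest, fell from 49.1 and 26.5 to 2.46 and 6.38 FPKM (adjusted p = 0.0463), Fbxo43, the anaphase inhibitor EMI2, from 41.1 and 50.2 to 3.96 and 7.81 (adjusted p = 0.00452), and Ccnb2 from 222 and 213 to 59.3 and 42.4 (adjusted p = 0.00197). Wee2, the oocyte kinase that inhibits CDK1, fell from 318 and 316 to 44.4 and 66.8 (log2 difference -2.52, SE 0.30, adjusted p = 0.00177), whereas it was at 523 and 405 in WT 2-cell embryos. Cdk1 rose from 46.4 and 35.0 to 389 and 488 (adjusted p = 0.012) and Cdc25c, the phosphatase that activates it, from 2.54 and 1.74 to 61.8 and 68.4 (adjusted p = 0.00544). For both genes the stages did not overlap. The count of M-phase genes called higher was 1 without cKO 2-cell replicate 1 and 3 without cKO 2-cell replicate 2, and that called lower was 8 without either cKO 2-cell replicate. The call did not hold in every leave-one-out fit for Mos (without either WT zygote replicate or either WT 2-cell replicate or either cKO 2-cell replicate, highest adjusted p = 0.324), Fbxo43 (without cKO 2-cell replicate 1, adjusted p = 0.0608), Cdk1 (without either WT 2-cell replicate or either cKO 2-cell replicate, highest adjusted p = 0.133) and Cdc25c (without either cKO 2-cell replicate, highest adjusted p = 0.0765). A call was also lost for Mos (with a pseudocount of 5, adjusted p = 0.0782, under median-ratio scaling, adjusted p = 0.0948, and with the 4 cKO libraries alone, adjusted p = 0.186).

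Of 14 H2A deubiquitinase and partner genes, Usp16 included, 7 fell and 3 rose (50% and 21.4%, against 18.2% and 20.7% of all genes), with a median log2 difference of -0.67. Usp46 fell from 282 and 268 to 14.2 and 10.2 FPKM (log2 difference -4.40, SE 0.30, adjusted p = 0.000541), Usp3 from 61.1 and 57.2 to 3.83 and 5.24 (log2 difference -3.45, SE 0.43, adjusted p = 0.0019) and Usp21 from 37.7 and 29.1 to 9.88 and 5.09 (log2 difference -2.07, SE 0.63, adjusted p = 0.0422). Usp22, of the SAGA complex, rose from 1.58 and 1.85 to 74.6 and 18.8 (log2 difference 3.83, SE 0.51, adjusted p = 0.00244). Bap1, the catalytic subunit of the PR-DUB complex, was at 16.6 and 14.3 against 13.97 and 15.0 (adjusted p = 0.987). In WT, Usp21 was at 34.4 and 23.0 in zygotes and 54.9 and 37.5 in 2-cell embryos. Of the 14 genes, 6 fell and 5 rose in WT, against 14.9% and 36.6% of all genes. The interaction test called 0 of the 14, Usp21 included, different between cKO and WT. Of 30 Polycomb genes 8 rose and 7 fell in cKO embryos (26.7% and 23.3%), which is near the cKO background of 20.7% and 18.2%, and the median log2 difference was -0.17. The PRC1 subunit gene Pcgf5 rose from 2.80 and 3.33 to 231 and 191 (log2 difference 5.70, SE 0.38, adjusted p = 0.000522) and Cbx8 from the floor to 8.81 and 14.2 (adjusted p = 0.00143), while the catalytic PRC1 gene Rnf2 was at 84.0 and 120.1 against 118 and 138 (adjusted p = 0.807). Of PRC2, Ezh2 fell from 301 and 305 to 70.9 and 56.8 (adjusted p = 0.00318) and Mtf2 rose from 26.8 and 25.5 to 264 and 186 (adjusted p = 0.000723). The count of deubiquitinase genes called higher was 1 without cKO 2-cell replicate 1, and that called lower was 3 without either WT 2-cell replicate or either cKO 2-cell replicate. The count of Polycomb genes called higher was 5 without either cKO 2-cell replicate, and that called lower was 3 without either WT 2-cell replicate or cKO 2-cell replicate 2. When single libraries were omitted, the call ended for Usp21 (without cKO zygote replicate 1 or either WT 2-cell replicate or either cKO 2-cell replicate, highest adjusted p = 0.314). The call also ended for Usp21 (with a pseudocount of 5, adjusted p = 0.0597, under median-ratio scaling, adjusted p = 0.0687, and with the 4 cKO libraries alone, adjusted p = 0.0925).

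Developmental transcription factor and Wnt genes gave few calls in cKO embryos. Of 93 genes 4 rose and 8 fell (4.3% and 8.6%, against 20.7% and 18.2% of all genes), and 53 were at the floor in all 4 cKO libraries. Over all 14392 genes, 1335 were at the floor in those 4 libraries. In WT embryos 50 rose and 4 fell, against 36.6% and 14.9% of all genes. The list lay near the floor, with 72 of the 93 at it in both cKO zygote libraries and a median WT log2 difference of 0.50. A cKO 2-cell library had a weight of 0.20 in the model and a WT 2-cell library 0.51. A small change was therefore harder to call in cKO, and the part of this in the counts was not tested. The stage change was called more negative in cKO than in WT for 19 of the 93 and more positive for 1, against 4.55% and 0.605% of all genes. Such calls rest on both WT zygote libraries, as given below. Gata1, a regulator of blood cells, rose in cKO embryos from the floor to 65.1 and 72.3 (log2 difference 5.12, SE 0.31, adjusted p = 0.000416), above the WT 2-cell values of 33.3 and 24.1. Gata3 fell from 25.03 and 25.9 to 1 and 1.83 (adjusted p = 0.000925), and Hoxa7, which was present in zygotes, from 32.0 and 24.6 to 1.62 and 1 (adjusted p = 0.00349). The count of developmental genes called lower was 5 without either WT 2-cell replicate, 4 without cKO 2-cell replicate 1 and 3 without cKO 2-cell replicate 2. Calls lost on omission of 1 library were those of Hoxa7 (without cKO 2-cell replicate 2, adjusted p = 0.055).

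Markers of other cell types were mostly absent from the table or at the floor. Of 20 genes of cumulus and granulosa cells 7 were in the table, and of these Foxl2, Fst and Hsd17b1 were at the floor in all 4 cKO libraries. The summed FPKM of the 7 was 189.7 and 193.1 in cKO zygotes and 35.4 and 30.8 in cKO 2-cell embryos, most of it from Serpine2 in zygotes (162 and 166). Cyp19a1, which encodes aromatase, fell from 22.8 and 22.6 to the floor in both 2-cell libraries (adjusted p = 0.00112). Of 16 sperm genes 8 were in the table, with Prm1 at the floor in all 4 libraries and Prm2 falling from 15.7 and 15.7 to the floor (adjusted p = 0.00437). Their sum was 52.3 and 47.5 in zygotes and 43.0 and 84.4 in 2-cell embryos. The 6 measured of 15 blood and oviduct genes summed to 6 in each zygote library, all at the floor, and to 85.5 and 138.4 in 2-cell embryos, of which Epcam, an adhesion protein also made by embryos, gave 75.2 and 114. The part of such cells in any result was not tested. Leaving out 1 library ended the call of Prm2 (without either cKO 2-cell replicate, highest adjusted p = 0.0544).

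The direction of change went with the level in the zygote. Of 317 genes with a mean above 300 FPKM in cKO zygotes, 63.7% fell and 2.84% rose, with a median log2 difference of -2.33. In the range from 1 to 3 FPKM, 3.56% of 2694 genes fell and 25.1% rose. Values near the floor have less room to fall, which contributes to this order by construction. The 9 genes above 300 FPKM that still rose included Tceb1, H3f3a, Taf9, Gmnn, Eif1, Rpl17, Tpt1 and Eif4e. H3f3a, which encodes the replacement histone H3.3, went from 738 and 729 to 1270 and 1546 FPKM (log2 difference 0.93, SE 0.29, adjusted p = 0.0478), and Taf9, a subunit of TFIID and SAGA, from 659 and 672 to 1936 and 3178 (log2 difference 1.90, SE 0.38, adjusted p = 0.00999). Some abundant maternal transcripts were not called. Dppa3, also called Stella, a protector of the maternal methylome, was at 6656 and 6984 in zygotes and 5888 and 8774 in 2-cell embryos (adjusted p = 0.984), with overlapping libraries. Ccnb1, the mitotic cyclin, was at 1125 and 1086 against 1073 and 1292 (adjusted p = 0.956). With 1 library left out, the call was lost for H3f3a (without either cKO zygote replicate or either WT 2-cell replicate or either cKO 2-cell replicate, highest adjusted p = 0.135), Taf9 (without cKO 2-cell replicate 2, adjusted p = 0.0755), Tceb1 (without cKO 2-cell replicate 2, adjusted p = 0.099), Gmnn (without either cKO zygote replicate or either WT 2-cell replicate or cKO 2-cell replicate 2, highest adjusted p = 0.209), Eif1 (without cKO zygote replicate 2 or either WT 2-cell replicate or either cKO 2-cell replicate, highest adjusted p = 0.255), Rpl17 (without cKO zygote replicate 2 or either WT 2-cell replicate or either cKO 2-cell replicate, highest adjusted p = 0.336) and Tpt1 (without cKO 2-cell replicate 1, adjusted p = 0.0683). Other settings ended the call of H3f3a (under quantile normalization, adjusted p = 0.199, with the 4 cKO libraries alone, adjusted p = 0.144 and in the replicate block fit, adjusted p = 0.0661), Taf9 (with the 4 cKO libraries alone, adjusted p = 0.0679), Tceb1 (with the 4 cKO libraries alone, adjusted p = 0.115), Gmnn (under median-ratio scaling, adjusted p = 0.0698, under quantile normalization, adjusted p = 0.162, and with the 4 cKO libraries alone, adjusted p = 0.133), Eif1 (under quantile normalization, adjusted p = 0.0795, and with the 4 cKO libraries alone, adjusted p = 0.129), Rpl17 (with the 4 cKO libraries alone, adjusted p = 0.128) and Tpt1 (under quantile normalization, adjusted p = 0.0913, and with the 4 cKO libraries alone, adjusted p = 0.0559).

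**Figure D4:**
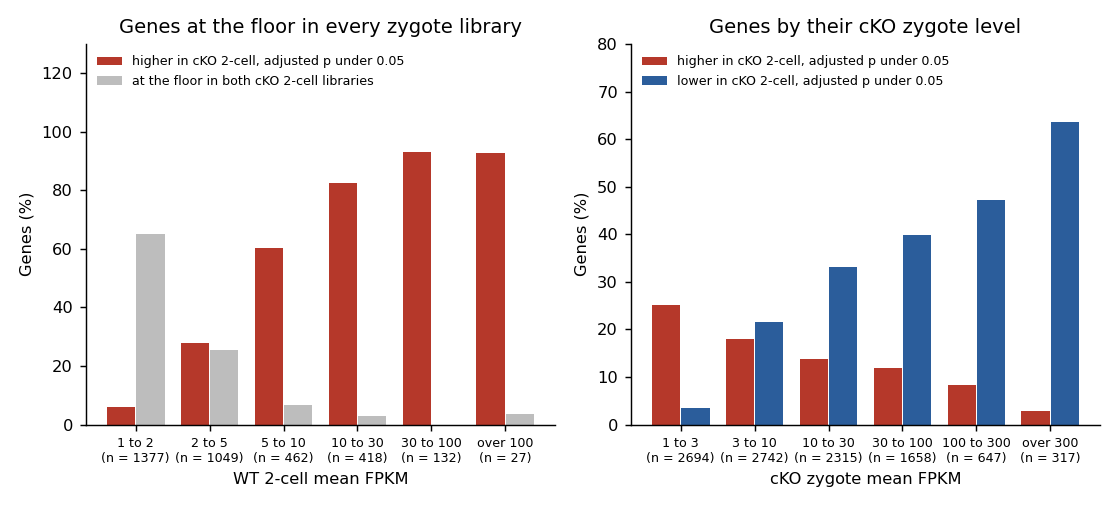
Left, genes at the floor in all 4 zygote libraries, grouped by their WT 2-cell mean FPKM (x axis, number of genes in brackets), with the percentage of genes (y axis) that rose in cKO embryos in red and the percentage at the floor in both cKO 2-cell libraries in grey. Right, genes grouped by their cKO zygote mean FPKM, with the percentage that rose in red and fell in blue, from 25.1% and 3.56% at 1 to 3 FPKM to 2.84% and 63.7% above 300.

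The cKO transition was set against the WT transition, which uses no library in common with it. The limma calls of both share 1 estimate of spread per gene, so their overlap is not one between independent tests. In WT embryos 5269 genes rose (36.6%) and 2141 fell (14.9%). Of the genes that rose in cKO embryos, 2723 (91.3%) also rose in WT, which is 51.7% of the WT risers, and 2523 genes rose in WT without a call in cKO. Of the genes that fell in cKO embryos, 1669 (63.6%) also fell in WT, or 78% of the WT fallers. By the 3-fold rule, 70.5% of the 3739 genes higher in WT 2-cell embryos and 87.1% of the 1263 lower ones passed in cKO as well. The 2 stage changes correlated across all genes at r = 0.87 and rho = 0.838 (14392 genes, a description only). Genes that rose in both genotypes had a median log2 difference of 2.47 in cKO and 2.39 in WT. Genes that fell in both had a median of -2.46 in cKO and -1.57 in WT, and 1501 of them (89.9%) fell further in cKO. The standard error was larger in cKO than in WT, so a gene needed a larger change in cKO to enter these sets. The scale of the libraries differed as well. Median-ratio scaling divided both WT 2-cell libraries by 1.234 and the cKO 2-cell libraries by 0.988 and 0.794. The median difference of the 2 stage changes over all genes was -0.338. The part of either in the 89.9% was not tested.

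How far a silent gene came on in cKO embryos followed its level in WT 2-cell embryos. Among genes at the floor in all 4 zygote libraries, the share that rose in cKO embryos was 5.95% of 1377 genes with a WT 2-cell mean of 1 to 2 FPKM, 27.8% of 1049 at 2 to 5, 60.2% of 462 at 5 to 10, 82.5% of 418 at 10 to 30, 93.2% of 132 at 30 to 100 and 92.6% of 27 above 100. The share left at the floor in both cKO 2-cell libraries ran from 65.2% down to 0% at 30 to 100 FPKM. Above 100 FPKM the 1 gene left at the floor was the small RNA gene Scarna10. A difference of a few FPKM is hard to call near the floor, so the lowest classes are limited by the scale.

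**Figure D5:**
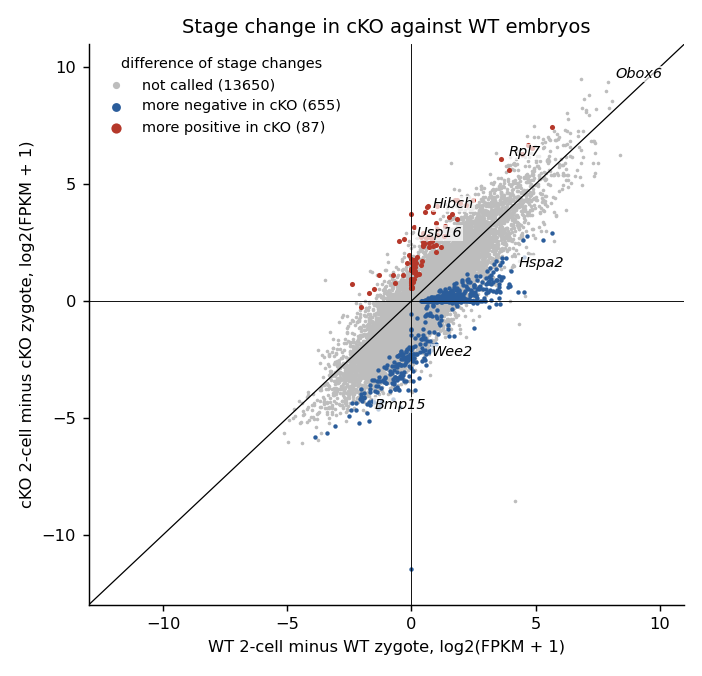
Stage change in WT (x axis) against stage change in cKO embryos (y axis), both as log2(FPKM + 1) differences between 2-cell embryos and zygotes, for 14392 genes; the diagonal marks equal changes. Red points (87) and blue points (655) are genes whose stage change was more positive or more negative in cKO than in WT at an adjusted p under 0.05, and grey points were not called.

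The difference between the 2 stage changes was tested as an interaction in the same model. It was more positive in cKO for 87 genes (0.605%) and more negative for 655 (4.55%), and 95.6% of the genes that rose in cKO embryos and 92.8% of those that fell had no such call. These counts rest on both WT zygote libraries, because without either of them 0 genes were called more positive and 1 more negative. They were 15 and 210 without cKO zygote replicate 1, 25 and 315 without replicate 2, 170 and 1562 without WT 2-cell replicate 1, 135 and 1601 without replicate 2, and 162 and 405 without cKO 2-cell replicate 2. Without cKO 2-cell replicate 1, 272 genes were more positive. The balance also depended on scaling, with 214 more positive and 306 more negative under median-ratio scaling and 185 and 184 under quantile normalization. The median difference of the 2 stage changes over all genes was -0.338 on the log2 scale as deposited. Of the 655, 419 rose in WT and were not called in cKO, 189 fell in cKO and 47 rose in cKO by less than in WT. Of the 87, 83 rose in cKO. Hibch, an enzyme of valine breakdown, went from the floor to 27.5 and 26.6 FPKM in cKO and to 1.46 and 2.53 in WT (interaction 3.25, SE 0.33, adjusted p = 0.0105). Syngr1, a synaptic vesicle protein gene, went from the floor to 21.6 and 34.7 in cKO and to 2.65 and 2.60 in WT (interaction 2.97, SE 0.32, adjusted p = 0.0111). The other genes named for a more positive change, Pgam2, 2410003L11Rik, Mogs, Apon, Icam2 and BC096441, stayed under 8 FPKM in every library. Stard3nl (mm9, chromosome 13, 19449546 to 19487621, minus strand), a late endosomal protein gene, fell from 339.9 and 358 to 13.6 and 14.3 in cKO but was at 291 and 336 and then 247 and 207 in WT (interaction -4.08, SE 0.36, adjusted p = 0.00873). Pkd2l2 fell from 1074 and 1120 to 40.9 and 46.7 in cKO and from 1373 and 1456 to 628 and 489 in WT (interaction -3.27, SE 0.36, adjusted p = 0.012). Gng12, a G protein gamma subunit, fell from 52.9 and 55.6 to 8.53 and 8.25 in cKO, with 76.1 and 71.4 in WT 2-cell embryos (interaction -2.96, SE 0.31, adjusted p = 0.0111). Suclg2, a subunit of succinyl-CoA ligase, fell from 50.9 and 53 to 3.63 and 4.25 in cKO, with 41.7 and 55.4 in WT 2-cell embryos (interaction -3.22, SE 0.35, adjusted p = 0.0118). Of the genes that rose in cKO by less than in WT, Dub1, a deubiquitinase gene with close copies, reached 2.86 and 2.65 in cKO against 20.0 and 20.7 in WT, and Fzd4, a Wnt receptor gene, 2.07 and 2.78 against 17.2 and 15.4, all from the floor. Prl2a1 was above the floor in the cKO zygote libraries alone, at 3.55 and 3.64. Whether each named interaction held in the alternative fits is not given here. As the counts above show, almost none of them can have held without a WT zygote replicate. The call that Fzd4 rose within cKO did not hold without either WT zygote replicate, either cKO zygote replicate or cKO 2-cell replicate 2. The call of a rise within cKO was also lost for Dub1 (with a pseudocount of 5, adjusted p = 0.0598) and Fzd4 (with a pseudocount of 5, adjusted p = 0.0882 and in the replicate block fit, adjusted p = 0.05).

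A reversed direction was rare, with 26 genes called oppositely in cKO and WT, 3 higher and 23 lower in cKO 2-cell embryos. Stradb, a partner of the kinase LKB1, fell from 109 and 95.7 to 22.1 and 21.0 FPKM in cKO and went from 113 and 94.4 to 172 and 164 in WT. Iqca fell from 42.2 and 35.1 to 14.4 and 11.8 in cKO and was at 36.2 and 35.1 and then 111 and 95.3 in WT. Ubl3, Pard3 and Pdia4 had the same pattern, from 29.7 and 33.9 to 8.68 and 4.99, from 49.0 and 43.9 to 22.7 and 6.27 and from 40.5 and 34.5 to 10.1 and 8.67 in cKO. 1110007C09Rik was at 3.54 and 3.36 in cKO zygotes and at the floor in cKO 2-cell embryos, while WT 2-cell embryos had 8.41 and 13.9. The losses below are of the fall within cKO, and the same fits of the WT change are not given here. When single libraries were omitted, the fall was no longer called for Iqca, Pdia4 and 1110007C09Rik (without either cKO 2-cell replicate). The same held for Pard3 (without either WT 2-cell replicate or cKO 2-cell replicate 2). That call also ended for Iqca (with the 4 cKO libraries alone, adjusted p = 0.0793), Pard3 (with the 4 cKO libraries alone, adjusted p = 0.117) and 1110007C09Rik (with a pseudocount of 5, adjusted p = 0.0846, under median-ratio scaling, adjusted p = 0.0736, and under quantile normalization, adjusted p = 0.057).

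Taken singly against the mean of the zygote libraries, cKO 2-cell replicate 1 had 3216 genes more than 3-fold higher and 2771 lower, and replicate 2 had 3133 and 3178. Of these, 2404 were higher and 2336 lower in both, 812 and 729 were higher in replicate 1 or replicate 2 alone, and 435 and 842 were lower in replicate 1 or replicate 2 alone. Opposite directions were given by 6 genes, 3 each way. Akt1, a kinase of growth signalling, was at 21.8 and 18.0 FPKM in zygotes and 13.6 and 1 in the 2-cell libraries, and Cad, an enzyme of pyrimidine synthesis, was at the floor in zygotes and at 13.9 and 1 in the 2-cell libraries. Timp1, a metalloproteinase inhibitor, and Gpha2, a hormone subunit gene, were at the floor in zygotes and at 1 and 17.7 and at 1 and 25.7. None of these 4 genes was called as reported (adjusted p from 0.0729 for Akt1 to 0.134 for Gpha2). The same gap, with 1 library at the floor, was seen for LOC100302567, Rnu12, AY761185 and 2300002M23Rik, which were high in replicate 2, and for 2410012M07Rik, Mospd3, 1700092M07Rik and Sec16a, which were high in replicate 1. A call was gained by Akt1 (without cKO 2-cell replicate 1, adjusted p = 0.0186), Cad (without cKO 2-cell replicate 2, adjusted p = 0.00439), Timp1 (without cKO 2-cell replicate 1, adjusted p = 0.0105), Gpha2 (without cKO 2-cell replicate 1, adjusted p = 0.0153), LOC100302567 (without cKO 2-cell replicate 1, adjusted p = 0.0424) and Sec16a (without cKO 2-cell replicate 1, adjusted p = 0.00922). Akt1 (under quantile normalization, adjusted p = 0.0395, and with the filter at a group mean of 3, adjusted p = 0.0373) passed in another setting. The difference between the 2 cKO 2-cell libraries had a correlation of 0.0443 with the WT stage change across genes, as a description.

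Transcript length moved with the result and with the replicate difference. Genes that rose with all 4 ratios past 3 had a median GENCODE M1 transcript length of 2288 bases and genes that fell of 3010, against 2801 over all genes and 961 for ribosomal protein genes. Of 1244 genes up to 1000 bases 25.1% rose and 10.8% fell, and of 3765 genes above 4000 bases 15.1% rose and 21.5% fell. Across 13775 genes the rank correlation of length was -0.141 with the cKO stage change, -0.115 with the WT stage change and -0.253 with the difference of cKO 2-cell replicate 2 minus replicate 1. Its part in the counts was not tested. The X chromosome held 3.75% of the genes that rose, 3.93% of those that fell and 3.70% of all genes. The common reference genes did not pass the test in either direction. Gapdh was at 19.8 and 13.9 FPKM in zygotes and 50.0 and 47.7 in 2-cell embryos (adjusted p = 0.169), and Actb at 93.7 and 99.5 against 91.0 and 35.7 (adjusted p = 0.182). Gapdh (with equal weights, adjusted p = 0.00709 and in the replicate block fit, adjusted p = 0.0335) passed in another setting.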

How the data were processed

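Poly(A)-primed Smart-seq2 libraries of 10 pooled embryos were used, 2 for each of 4 groups (WT and cKO, zygote and 2-cell). The deposited values are normalized FPKM made by the authors, who trimmed reads, aligned them to mm9 with TopHat2 2.1.1 and quantified genes with Cufflinks 2.2.1 per the labels. The authors removed genes under 1 in every sample and set values under 1 to 1. The annotation and the normalization behind the term are not given in the sources used here.

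Groups were taken from the sample labels. Stage changes were tested on log2(FPKM + 1) with limma 3.58.1 in R 4.3.3 (1 coefficient per group, 1 array weight per group, empirical Bayes moderation, 4 residual degrees of freedom), two-sided, with Benjamini-Hochberg adjusted p under 0.05 over 14392 genes. SE is the moderated standard error of the log2 difference. Folds are ratios of group means of FPKM. Tables and plots were made with Python 3.11.15, pandas 2.3.3 and matplotlib 3.10.9. The limma step was tested on simulated data with known changes. Alternatives were other pseudocounts, scalings, a filter on low values, equal weights, the cKO libraries alone, a replicate block and leaving out each library.

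Gene lists, genes and tests were chosen with earlier results of these data known. Genes were named as list members, as the 12 largest folds each way, as the 8 most abundant each way, as the 8 strongest interactions each way, as the 6 largest opposite changes and as the 6 largest gaps between the cKO 2-cell libraries each way, leaving out microRNA, snoRNA, scaRNA, 7S and ribosomal RNA genes by their names (other small RNA genes such as Rnu11 and Rnu12 stayed), together with Usp16, Gapdh and Actb. Genes that went from the floor to over 100 FPKM, genes above 300 FPKM in zygotes, Scarna10 and Rn45s were named after their values were seen. Coordinates are mm9 from GENCODE M1 (13775 genes matched by symbol), and promoters are from RefSeq GRCm38.p6 (10168 genes matched, of which 8237 had 1 listed start). The H2AK119ub1 ChIP samples are not analysed here. Some genes that these rules name are not reported here.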

Additional observations from a re-analysis of the deposited data

Results flagged for a closer look

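The stage change was compared between cKO and WT embryos by the interaction of limma's model, and 87 genes had a more positive and 655 a more negative change in cKO at an adjusted p under 0.05. The values here are the difference of the 2 stage changes on the log2(FPKM + 1) scale, cKO minus WT, with 2 libraries in each of the 4 groups. Among the genes described above, the difference was 1.39 for Pgam2, 1.59 for 2410003L11Rik, 3.25 for Hibch, 1.81 for Mogs, 1.54 for Apon, 2.97 for Syngr1, 1.32 for Icam2 and 1.31 for BC096441.

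On the negative side it was -4.08 for Stard3nl, -1.20 for Prl2a1, -3.67 for 1110007C09Rik, -2.51 for Dub1, -2.96 for Gng12, -3.22 for Suclg2, -2.34 for Fzd4, -3.27 for Pkd2l2, -2.99 for Iqca, -2.89 for Stradb, -2.87 for Ubl3, -2.85 for Pard3 and -2.71 for Pdia4. Of the genes named for other reasons, it was -3.45 for Agr3, -3.0 for Bmp15, -3.08 for Dclk2, -1.95 for Dnajb4, -1.95 for Eef2k, -2.10 for Eif4e3, -2.30 for Epsti1, -2.73 for Hspa2, -3.53 for Klf10, -2.23 for Nit2, -11.5 for Rn45s, -2.04 for Serpine2, -3.06 for Wee2, -1.70 for Yap1 and -2.52 for Zbed3. In each of the genes with a negative value other than Prl2a1 and Rn45s, which were at the floor in both, the cKO 2-cell libraries were below the WT 2-cell libraries. The value for Rn45s rests on listed values of 1 that may be a failed estimate, as stated above. These calls share the dependence of both counts on the WT zygote libraries, and the cause of the differences was not tested.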

How the results depend on the processing

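Under the pseudocounts of 0.1 and 5, the filter on genes with a group mean of at least 3, equal weights, both scalings and the replicate block, the counts of genes that rose and fell stayed within 1.5 times those reported, and no gene called in 1 direction was called in the other. The count of genes that fell was 1724 with the 4 cKO libraries alone and ran from 1091 to 2829 with single libraries left out. The share of genes higher in WT 2-cell embryos that were also higher in cKO, 70.5% as reported, was 61.8% when all 4 ratios had to pass 3 and 80.3% under median-ratio scaling, and the share for lower genes, 87.1% as reported, was 83.0% and 79.5%. The counts of more positive and more negative stage changes were 214 and 306 under median-ratio scaling, 185 and 184 under quantile normalization, 227 and 1474 with equal weights, and from 0 to 272 and from 1 to 1601 with single libraries left out. Of 165 called genes that are named above, 21 lost the call with the 4 cKO libraries alone, 6 under median-ratio scaling, 6 with a pseudocount of 5, 5 under quantile normalization and 2 with the replicate block, each given beside its values, and 2 to 33 with single libraries left out. The Usp16 difference stayed at 2.57 with the 4 cKO libraries alone (limma adjusted p = 0.0667) and ran from 2.08 to 3.06 with single libraries left out.

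Replicate numbers are shared by the groups, but no source says that a number marks a common mother or day, and deviations of same-numbered libraries correlated at 0.0428 between the cKO stages over all genes. In the replicate block fit, 3074 genes rose, 2938 fell, and 20 and 245 had a more positive and a more negative change. With 1 library left out of a group, the remaining one kept its group's weight from the full fit, and the spread of a gene came from the other groups. The cause of these shifts was not tested.

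Limits are set by 2 libraries a group, by the wide spread of the cKO 2-cell pair and by FPKM values without counts. Sequencing depth is unknown, values under 1 cannot be resolved, and relative FPKM cannot show a change in total RNA.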
